A study of Capra hircus with 12 samples.

Results

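Elastic fiber genes were followed in cultured goat temporomandibular joint (TMJ) cells through 10 members: the fibrillins FBN1 and FBN2, the microfibril-associated genes MFAP2, MFAP5 and EMILIN1, elastin (ELN), and the fibulins FBLN1, FBLN2, FBLN5 and EFEMP2 (fibulin-4). They are 10 of the 28910 rows in the count tables and were taken by gene name. FBN2 and MFAP5 were selected on their counts in these same libraries, for the pattern over the 4 groups, so their values are given as a description without a test. The other 8 genes were tested. RNA-seq covered 12 libraries, 3 for each combination of layer (SLC, superficial layer cartilage, or MLC, middle layer cartilage) and treatment (IL-1β, or IL-1β+LOXL2). All 4 groups therefore received IL-1β, an inflammatory cytokine that drives cartilage breakdown, and vehicle-treated cells were not analysed here. According to the methods, the joints came from female goats aged 6 to 9 months, cells were used at passages 3 to 5, IL-1β was given for 1 h, and LOXL2 was delivered by an overnight adenovirus before IL-1β. Whether an empty virus was given to the cells with IL-1β only is not stated for the RNA-seq cultures, so an effect of LOXL2 and one of the virus cannot be told apart. Nothing in the labels says that the 3 replicates came from separate animals or cultures, so p-values measure the spread between these libraries, which may be technical.

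Elastic fibers consist of a core of cross-linked elastin and a mantle of fibrillin microfibrils. Microfibrils form first and give tropoelastin a scaffold, while fibulin-4 and fibulin-5 help to place tropoelastin and the lysyl oxidases LOX and LOXL1 on it. Fibrillins also hold latent TGF-β complexes and BMPs in the matrix. In the condylar fibrocartilage of the TMJ, the superficial layer is fibrous and the layers beneath it hold more chondrocyte-like cells. LOXL2 itself belongs to the same enzyme family that oxidizes lysines for collagen and elastin cross-links.

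Library totals ranged from 14158607 to 28931652 counts, and levels are given as CPM, the counts per 1e6 counts of a library after scaling by TMM (trimmed mean of M-values) over the 12 libraries. These levels are not divided by transcript length, so they compare 1 gene between samples and never 1 gene with another. LOXL2 counts did not identify the libraries labelled IL-1β+LOXL2. In SLC, LOXL2 was at 616, 619 and 634 CPM with IL-1β and at 459, 547 and 562 CPM in the LOXL2-labelled libraries. In MLC, LOXL2 was at 768, 877 and 818 CPM with IL-1β and at 816, 798 and 744 CPM in the LOXL2-labelled libraries. Which LOXL2 sequence the virus carried is not given in the sources used here, so each LOXL2 effect below is a difference between libraries as labelled. The first IL-1β+LOXL2 library of each layer lay apart from the other two. The share of counts on genes spanning over 100000 bases, with the 10 genes themselves left out, was 13.1% to 14.2% in SLC with IL-1β, and 12.0%, 7.71% and 9.07% in the 3 SLC libraries with LOXL2. It was 12.6% to 13.0% in MLC with IL-1β, and 11.6%, 9.86% and 9.07% in MLC with LOXL2. The cartilage markers COL2A1, COL9A1 and ACAN were lower in SLC than in MLC, but COL11A1 was not, at a mean of 1235 and 1197 CPM with IL-1β. In SLC, COL2A1 and COL9A1 had 0 counts in all 3 IL-1β libraries, against 10.4 to 20.8 CPM of COL2A1 and 11.5 to 15.3 CPM of COL9A1 in MLC. ACAN was at 47.6 ± 2.48 CPM in SLC and at 401 ± 44.3 CPM in MLC with IL-1β (SD, n = 3). The summed level of the 8 markers of the fibrous superficial layer did not separate the layers with IL-1β. It was 70804 to 72166 CPM in SLC and 70413 to 72538 CPM in MLC. Most of that sum was collagens that differed in opposite directions. COL1A1 (36621 CPM in SLC against 32133 CPM in MLC), COL1A2 (20790 against 16399 CPM) and THY1 had higher means in SLC. COL3A1 (12283 against 19973 CPM) and TNC (1094 against 2423 CPM) had higher means in MLC. So did PRG4 (4.40 against 5.98 CPM), POSTN (95.1 against 228 CPM) and CILP. Of 6 endothelial markers, the summed level was at most 5.24 CPM in every library.

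FBN1, the main structural protein of microfibrils (ARS1.2 chromosome 10, 41246198 to 41521360), had its highest levels in SLC with IL-1β. In SLC it was at 3692, 4026 and 3445 CPM with IL-1β and at 2592, 1134 and 1532 CPM with IL-1β+LOXL2. In MLC it was at 1721, 1473 and 1714 CPM with IL-1β and at 1299, 925 and 804 CPM with IL-1β+LOXL2. The treatment groups did not overlap in either layer, but the first LOXL2 library of each layer was the closest to its IL-1β group. All 3 SLC libraries with IL-1β lay above all other libraries.

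FBN2, the second fibrillin (chromosome 7, 84898738 to 85125051), is best known from developing tissue. In SLC it was at 48.0, 52.6 and 42.1 CPM with IL-1β and at 20.4, 24.1 and 21.1 CPM with IL-1β+LOXL2. Its MLC libraries were at 54.3, 68.0 and 57.1 CPM with IL-1β and at 38.8, 31.2 and 26.5 CPM with IL-1β+LOXL2. Every LOXL2 library was below every IL-1β library, and within each treatment every MLC library was above every SLC library. The first SLC library with LOXL2 had the lowest FBN2 level of the 12, unlike its FBN1 level.

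MFAP2, a small glycoprotein bound to fibrillin along the microfibril (an unplaced sequence of ARS1.2, 1298 to 7371), was at 188, 173 and 191 CPM in SLC with IL-1β and at 249.9, 486 and 352 CPM with IL-1β+LOXL2. MLC cells had 177, 192 and 178 CPM with IL-1β and 209, 284 and 316 CPM with IL-1β+LOXL2. The IL-1β libraries of both layers thus shared 1 range, and every LOXL2 library was above it. MFAP5, its relative (chromosome 5, 100077394 to 100089353), separated the layers instead. It was at 205, 204 and 226 CPM in SLC with IL-1β and at 259, 270.2 and 269.6 CPM with IL-1β+LOXL2. In MLC it was at 21.9, 25.5 and 26.1 CPM with IL-1β and at 29.4, 34.5 and 38.0 CPM with IL-1β+LOXL2. The lowest SLC library was therefore far above the highest MLC library, and within each layer all LOXL2 libraries were above all IL-1β libraries.

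EMILIN1 lies at the boundary between elastin and microfibrils (chromosome 11, 72272413 to 72280424). In SLC it was at 85.4, 90.5 and 86.8 CPM with IL-1β and at 86.6, 93.0 and 99.1 CPM with IL-1β+LOXL2. Its MLC libraries were at 253, 223 and 263 CPM with IL-1β and at 245, 265 and 302 CPM with IL-1β+LOXL2. Every MLC library was above every SLC library, and the treatments overlapped in both layers. ELN, which encodes tropoelastin (chromosome 25, 33078728 to 33111413), was at 1604, 1802 and 1774 CPM in SLC with IL-1β and at 1766, 1687 and 1830.4 CPM with IL-1β+LOXL2. MLC cells had 1548, 1591 and 1618 CPM with IL-1β and 1813, 2041 and 2104 CPM with IL-1β+LOXL2. The treatments overlapped in SLC and did not overlap in MLC.

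The fibulins bind elastin, fibrillins and other matrix proteins, and FBLN2 and FBLN5 were higher in SLC, FBLN1 was higher in MLC, and EFEMP2 overlapped between layers. FBLN2 (chromosome 22, 58262272 to 58285170) was at 1050.2, 1024 and 1038 CPM in SLC with IL-1β and at 1154, 1489 and 1348 CPM with IL-1β+LOXL2. In MLC it was at 292, 349 and 311 CPM with IL-1β and at 353, 424 and 413 CPM with IL-1β+LOXL2. Every SLC library was above every MLC library, and the treatments did not overlap within a layer. FBLN5, which carries tropoelastin to microfibrils (chromosome 21, 56042303 to 56134890), was at 116, 108 and 102 CPM in SLC with IL-1β and at 132, 74.1 and 94.9 CPM with IL-1β+LOXL2. Its MLC libraries were at 28.7, 23.5 and 26.1 CPM with IL-1β and at 28.8, 29.4 and 27.9 CPM with IL-1β+LOXL2. Its SLC libraries with LOXL2 lay on both sides of the IL-1β range.

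FBLN1, found in basement membranes and on elastic fibers (chromosome 5, 114834771 to 114917102), was at 34.2, 33.3 and 35.0 CPM in SLC with IL-1β and at 29.8, 44.6 and 44.4 CPM with IL-1β+LOXL2. MLC cells had 64.1, 58.5 and 55.3 CPM with IL-1β and 63.8, 65.1 and 68.2 CPM with IL-1β+LOXL2. Every MLC library was above every SLC library, opposite to FBLN2 and FBLN5. EFEMP2, whose protein recruits LOX to tropoelastin (chromosome 29, 44393651 to 44401054), was at 276, 263 and 301 CPM in SLC with IL-1β and at 295, 453 and 389 CPM with IL-1β+LOXL2. In MLC it was at 289.8, 323 and 285 CPM with IL-1β and at 333, 413 and 419.8 CPM with IL-1β+LOXL2. The layers overlapped within each treatment.

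**Figure D1:**
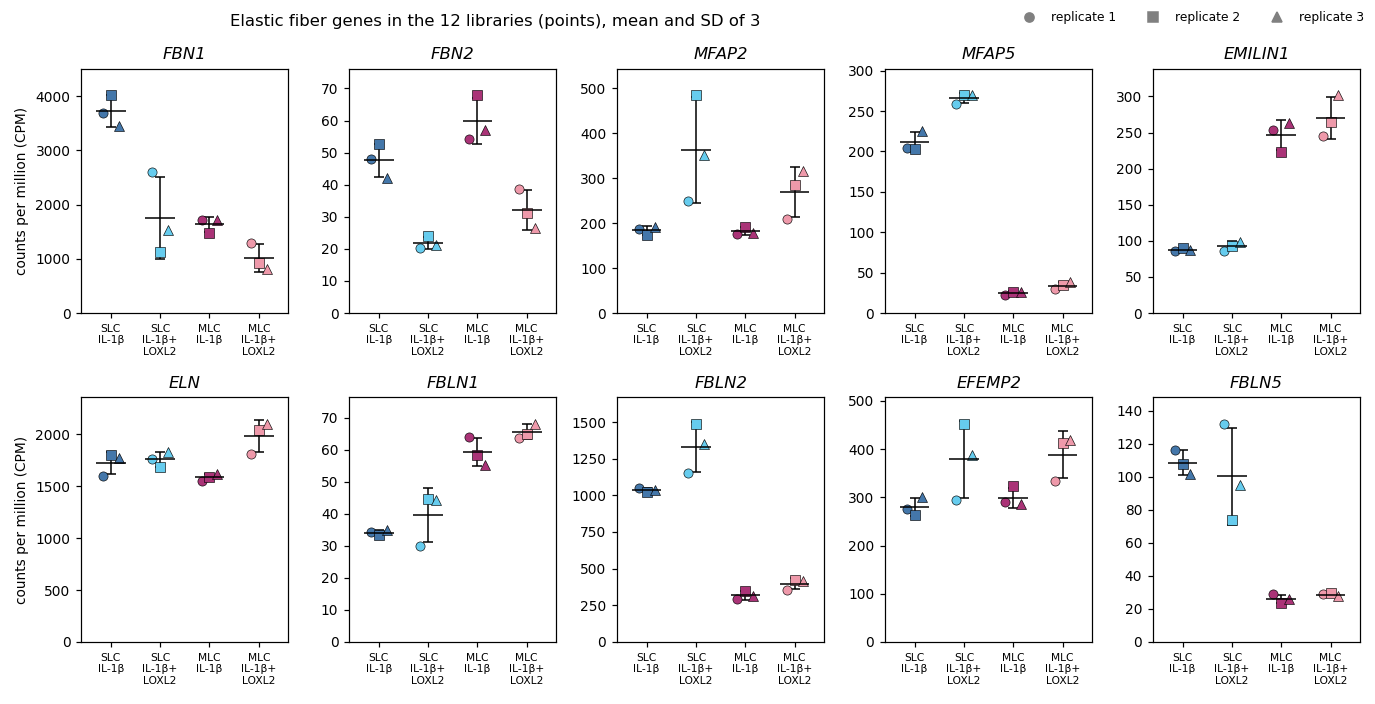
Level of each of the 10 genes in CPM (y axis, from 0) in the 4 groups (x axis), with 1 point per library, the marker shape giving the replicate number, a horizontal line for the mean and a bar for the SD of 3 libraries. MFAP5, FBLN2 and FBLN5 are high in both SLC groups, EMILIN1 and FBLN1 are high in both MLC groups, and FBN1 is highest in the 3 SLC libraries with IL-1β.

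The first comparison asked how the layers differed when both received IL-1β. Of the 8 tested genes, 5 passed the test (edgeR's quasi-likelihood test, Benjamini-Hochberg adjusted p under 0.05 over 13953 genes), 2 higher and 3 lower in MLC, while 46.9% of all genes passed, 24.2% higher and 22.7% lower. FBLN5 was 4.15-fold lower in MLC (log2 fold change -2.05, SE 0.082, edgeR adjusted p = 1.33e-10), and FBLN2 was 3.26-fold lower (log2 fold change -1.70, SE 0.071, edgeR adjusted p = 2.04e-10). FBN1 was 2.27-fold lower (log2 fold change -1.18, SE 0.080, edgeR adjusted p = 2.92e-08). EMILIN1 was 2.82-fold higher in MLC (log2 fold change 1.496, SE 0.069, edgeR adjusted p = 5.69e-10), and FBLN1 was 1.74-fold higher (log2 fold change 0.80, SE 0.072, edgeR adjusted p = 5.10e-07). For ELN, EFEMP2 and MFAP2 the difference missed the threshold, with 95% intervals of the log2 difference of -0.26 to 0.020 for ELN, -0.048 to 0.25 for EFEMP2 and -0.14 to 0.13 for MFAP2. The groups of the 5 called genes did not overlap, which was so for 55.9% of all genes, 28.1% higher and 27.8% lower. DESeq2's Wald test called the same 5 genes, and 34.6% of all genes. The median absolute log2 difference was 0.99 over the 8 genes and 0.25 over all genes. The 5 calls held in each alternative fit, including every fit without 1 library. MFAP5 was 8.60-fold lower in MLC (log2 difference -3.10) and FBN2 1.26-fold higher (0.33), both without a test. Fewer cells of a kind and less RNA per cell cannot be told apart in these bulk libraries. The summed level of the 8 measured chondrocyte markers was 1306 to 1431 CPM in SLC and 1770.5 to 1919.6 CPM in MLC with IL-1β, with COL2A1 and COL9A1 at 0 counts in SLC. The summed smooth muscle and pericyte markers were at 3040.0 to 3783 CPM in SLC and 2379 to 2572 CPM in MLC. Most of that sum was ACTA2 (mean 1639 CPM in SLC against 866 CPM in MLC) and TAGLN (1598 against 1350 CPM). MYH11 and RGS5 also had higher means in SLC, and SMTN was at 213 against 210 CPM. CNN1 (44.6 against 46.4 CPM) and DES (0.11 against 0.31 CPM) had higher means in MLC. The 6 osteoblast markers were at 49.0 to 52.9 CPM and 124 to 129 CPM. Of these, SPP1 had a mean of 13.6 CPM in SLC and 98.6 CPM in MLC. RUNX2 went the other way, with 35.9 CPM in SLC and 24.5 CPM in MLC. BGLAP, IBSP and SP7 had means of at most 1.93 CPM, higher in MLC, and DMP1 had 0 counts. The part of these lists in the layer difference was not tested.

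With LOXL2 in both layers, 4 of the 8 genes passed the test between layers, against 16.1% of 14074 genes. They were 2 higher and 2 lower in MLC, against 9.29% and 6.83% of all genes. DESeq2's Wald test called the same 4, and 17.2% of all genes. The groups of these 4 genes did not overlap, which was so for 35% of all genes, 18% higher and 17% lower. FBLN2 was lower in MLC by a log2 difference of -1.73 (SE 0.14, edgeR adjusted p = 4.27e-04) and FBLN5 by -1.80 (SE 0.22, edgeR adjusted p = 0.00178). EMILIN1 was higher in MLC (1.56, SE 0.13, edgeR adjusted p = 4.09e-04), as was FBLN1 (0.75, SE 0.16, edgeR adjusted p = 0.0209). The FBLN1 call was lost in 4 of the 6 fits without 1 library (edgeR adjusted p up to 0.0914). FBN1 missed the threshold (-0.79, SE 0.33, edgeR adjusted p = 0.152) with a group SD of 754 CPM in SLC. With the trend of genomic span removed (described below), FBN1 was called lower and FBLN1 was no longer called. The count stayed at 4 of 8, 1 higher and 3 lower, while 21.6% of all genes were called, 1634 higher and 1409 lower. FBN1 was also called in the fit on all 12 libraries (28.9% of all genes called) and without SLC LOXL2 library 2 (14.1%). With the replicate number as a block, FBN1 was called lower in MLC (-0.73, SE 0.17, edgeR adjusted p = 0.0116) and the count became 5 of 8, while 27.6% of all genes were called, 14.4% higher and 13.2% lower. Without both first LOXL2 libraries, an alternative added after seeing the data, 6 of 8 genes were called, with FBN1 at -0.60 (SE 0.16, edgeR adjusted p = 0.0156), against 31.4% of all genes, 16.1% higher and 15.4% lower. MFAP2 was at -0.41 (SE 0.25, edgeR adjusted p = 0.333), ELN at 0.19 (SE 0.12, edgeR adjusted p = 0.359) and EFEMP2 at 0.055 (SE 0.17, edgeR adjusted p = 0.869). MFAP5 was 7.77-fold lower in MLC and FBN2 1.49-fold higher, both without a test.

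**Figure D2:**
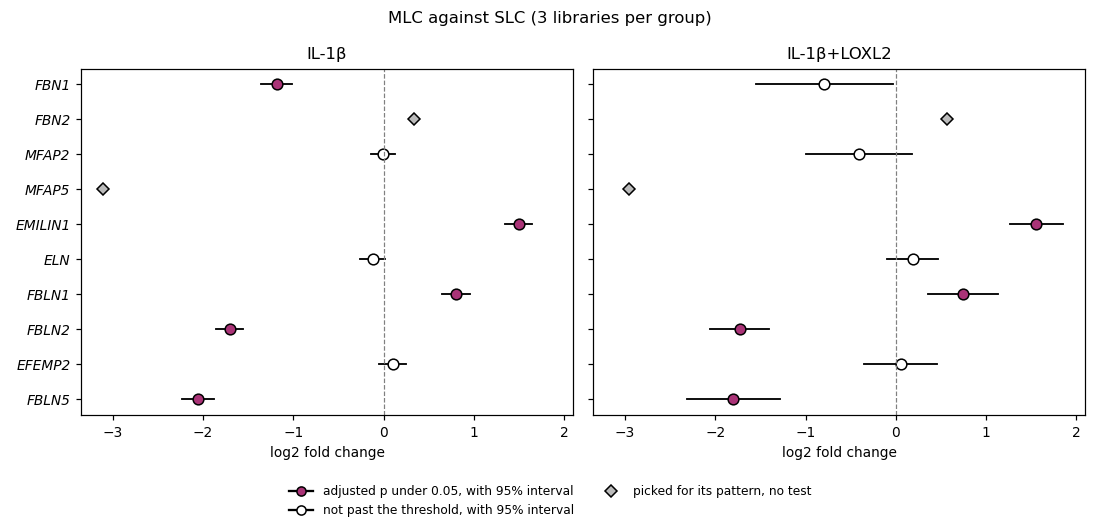
Log2 fold change of MLC against SLC (x axis) for each gene (y axis) with IL-1β (left) and with IL-1β+LOXL2 (right), 3 libraries per group. Circles carry 95% intervals and are filled where the adjusted p is under 0.05, and grey diamonds are the 2 genes without a test. FBLN5 and FBLN2 lie below -1.5 and EMILIN1 near 1.5 in both panels, while the interval of FBN1 is wide in the right panel only.

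In MLC, the libraries labelled IL-1β+LOXL2 were compared with IL-1β to ask what LOXL2 changed in these genes. Of the 8 tested genes, 5 passed the test, 4 higher and 1 lower, while 9.81% of 13664 genes were called higher and 11.8% lower, 21.6% in all. FBN1 fell 1.62-fold (log2 fold change -0.70, SE 0.15, edgeR adjusted p = 0.0199). MFAP2 rose 1.48-fold (0.56, SE 0.13, edgeR adjusted p = 0.0209), the opposite direction to the fibrillin it binds. ELN rose 1.25-fold (0.32, SE 0.087, edgeR adjusted p = 0.0275), EFEMP2 rose 1.30-fold (0.37, SE 0.10, edgeR adjusted p = 0.0294) and FBLN2 rose 1.25-fold (0.32, SE 0.10, edgeR adjusted p = 0.0421). EMILIN1 (0.13, SE 0.10, edgeR adjusted p = 0.357), FBLN5 (0.13, SE 0.11, edgeR adjusted p = 0.383) and FBLN1 (0.15, SE 0.095, edgeR adjusted p = 0.273) missed the threshold. FBN2 was 1.86-fold lower and MFAP5 1.38-fold higher with LOXL2, without a test. The groups of 5 tested genes did not overlap, which was so for 41.5% of all genes, 21% higher and 20.5% lower. DESeq2's Wald test called the same 5 genes, and 27.2% of all genes. The median log2 fold change was 0.23 over the 8 genes and 0.0079 over all genes.

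None of the 5 MLC calls remained when IL-1β library 1 or 3 or LOXL2 library 2 was left out, and 0% of all genes were called in each of those 3 fits. FBN1 alone remained without IL-1β library 2, when 5.95% of all genes were called, and without LOXL2 library 3, when 3.43% were. All 5 remained without the first LOXL2 library, when 48.1% of all genes were called, 23.7% higher and 24.4% lower. Over the 6 fits the log2 fold change stayed between -0.92 and -0.56 for FBN1, between 0.43 and 0.72 for MFAP2, between 0.28 and 0.39 for ELN, between 0.31 and 0.48 for EFEMP2 and between 0.26 and 0.40 for FBLN2. None of the 5 was called in the fit on all 12 libraries, nor was any of the 14519 genes tested there (0%).

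In SLC, none of the 8 genes passed the same test, and 0% of 14103 genes were called. At an unadjusted p under 0.05, 4 of 8 genes and 43.3% of all genes passed, and DESeq2's Wald test called 3 of 8 genes (FBLN2, MFAP2 and FBN1) and 31.9% of all genes. FBN1 was 2.14-fold lower with LOXL2 (log2 fold change -1.10, SE 0.29, edgeR adjusted p = 0.0706). MFAP2 was 1.95-fold higher (0.96, SE 0.22, edgeR adjusted p = 0.0706). FBLN2 was at 0.34 (SE 0.12, edgeR adjusted p = 0.083) and EFEMP2 at 0.42 (SE 0.16, edgeR adjusted p = 0.0936). The groups did not overlap for FBN1, MFAP2 and FBLN2 among the 8 tested genes, and for 49% of all genes, 25.5% higher and 23.5% lower. In the fit on all 12 libraries 4 of 8 genes and 41.1% of all genes were called, 3 of the 4 higher and 1 lower, against 22.5% and 18.5% of all genes. ELN was at 0.013, with a 95% interval from -0.24 to 0.27. EMILIN1 was at 0.069 (-0.16 to 0.29), FBLN1 at 0.20 (-0.18 to 0.57) and FBLN5 at -0.13 (-0.61 to 0.36), the values in brackets being 95% intervals. FBN2 was 2.20-fold lower and MFAP5 1.25-fold higher with LOXL2, without a test.

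Leaving out the first SLC library with LOXL2 changed the count. Then 6 of 8 genes were called, with FBLN1, FBLN2, EFEMP2 and MFAP2 higher and FBN1 and FBLN5 lower, while 61.7% of all genes were called, 31% higher and 30.8% lower. FBN1 was at -1.51 and MFAP2 at 1.16 in that fit, against -0.86 and 0.70 without SLC LOXL2 library 2. The other 5 fits without 1 library called none of the 8 and 0% of all genes. The summed level of the smooth muscle and pericyte markers was 3922 to 4572 CPM in SLC with LOXL2 against 3040.0 to 3783 CPM with IL-1β, and 2988 to 3964 CPM against 2379 to 2572 CPM in MLC. All 7 genes of that list had counts in each group, and ACTA2 and TAGLN made up most of the sum. The means of ACTA2, TAGLN, CNN1, SMTN and DES were higher with LOXL2 in both layers. CNN1 went from 44.6 to 47.8 CPM in SLC and from 46.4 to 66.6 CPM in MLC. SMTN went from 213 to 227 CPM in SLC and from 210 to 249 CPM in MLC. MYH11, a smooth muscle myosin, went from a mean of 35.4 to 29.5 CPM in SLC and from 27.4 to 26.8 CPM in MLC. RGS5, a pericyte marker, went from 0.76 to 0.69 CPM in SLC. In MLC, RGS5 had 0 to 3 counts per library, with means of 0.11 and 0.083 CPM. The 8 chondrocyte markers summed to 749.6 to 1305 CPM in SLC with LOXL2 against 1306 to 1431 CPM with IL-1β, and to 1486 to 1875 CPM against 1770.5 to 1919.6 CPM in MLC. Most of that sum was COL11A1, at a mean of 1235 CPM with IL-1β and 861 CPM with LOXL2 in SLC, while COMP went the other way, from 62.2 to 81.0 CPM in SLC and from 126 to 164 CPM in MLC. The part of either list in the LOXL2 effects was not tested.

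**Figure D3:**
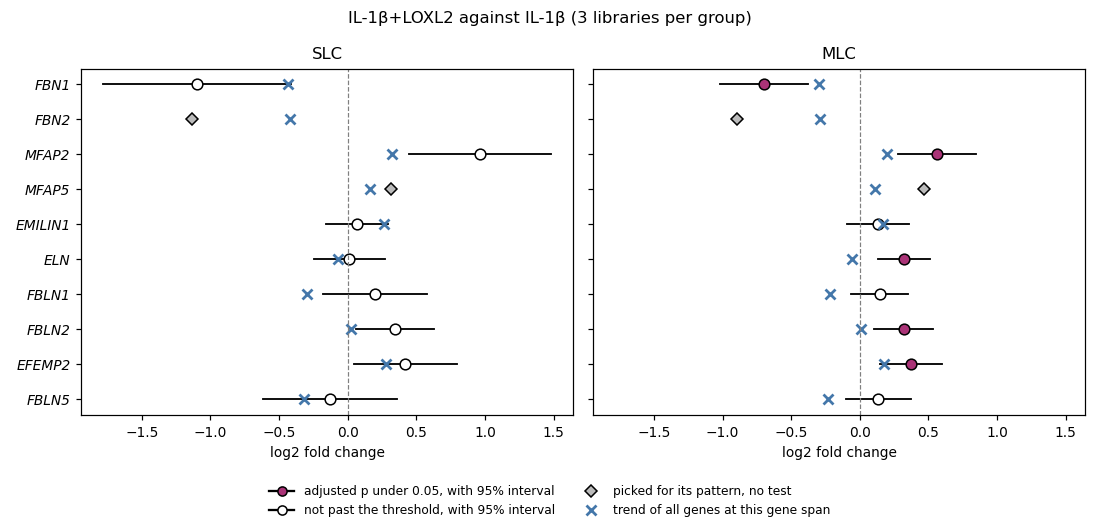
Log2 fold change of IL-1β+LOXL2 against IL-1β (x axis) for each gene (y axis) in SLC (left) and MLC (right), 3 libraries per group. Circles carry 95% intervals and are filled where the adjusted p is under 0.05, grey diamonds are the 2 genes without a test, and crosses are the trend of all genes at the same genomic span. FBN1 lies at -1.10 and -0.70, MFAP2 at 0.96 and 0.56, and FBN1, FBN2 and MFAP2 lie further from 0 than the cross of their row in both panels.

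Genomic span, which includes introns, moved with the LOXL2 effect. Spearman's correlation of span and log2 fold change, computed over genes that are no independent replicates, was -0.49 both in SLC (14073 genes) and in MLC (13637 genes). FBN1 spans 275163 bases and FBN2 226314, and both had negative log2 fold changes, while MFAP2 spans 6074, EFEMP2 7404, EMILIN1 8012 and MFAP5 11960. At the span of FBN1, the trend of all genes was at -0.43 in SLC and -0.30 in MLC, against the log2 fold changes of -1.10 and -0.70 of FBN1 itself. At the span of MFAP2, the trend was at 0.32 in SLC and 0.20 in MLC, against 0.96 and 0.56 for the gene. For FBN2 the trend was at -0.42 in SLC and -0.29 in MLC, against -1.14 and -0.90.

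With the span trend removed from each library, FBN1 was at -0.73 in SLC (SE 0.18, edgeR adjusted p = 0.0779) and at -0.44 in MLC (SE 0.10, edgeR adjusted p = 0.0229). The tested genes called in MLC were then 6 of 8, with ELN, FBLN1, FBLN2, FBLN5 and MFAP2 higher, FBN1 lower and EFEMP2 no longer called, against 13.3% of all genes, 5.95% higher and 7.36% lower. FBLN1 and FBLN5 span 82332 and 92588 bases, and their trend values in MLC were -0.22 and -0.23. The part of span in these effects was not tested further. Per library, the share of counts on long genes ran with FBN1 and against MFAP2 within each layer, with the second SLC library with LOXL2 at one end, with 7.71% of counts on long genes, 1134 CPM of FBN1 and 486 CPM of MFAP2.

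**Figure D4:**
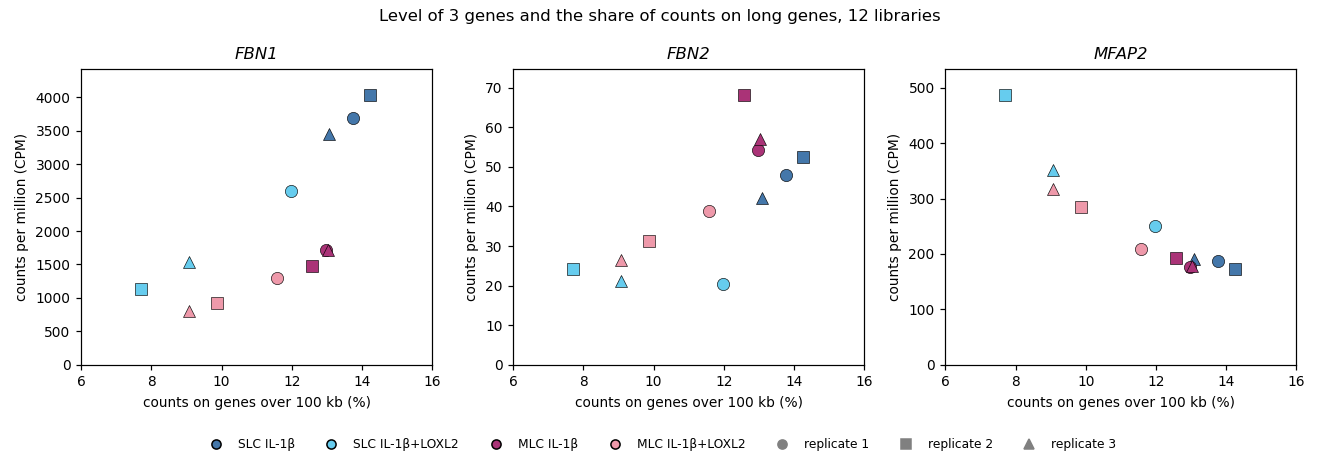
Level in CPM (y axis, from 0) of FBN1, FBN2 and MFAP2 against the share of counts on genes spanning over 100 kb (100000 bases; x axis, in percent), with 1 point per library, the colour giving the group and the shape the replicate number. LOXL2 libraries lie to the left, with FBN1 low and MFAP2 high at the smallest shares, and the first SLC library with LOXL2 lies at 12.0% with FBN2 at 20.4 CPM.

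Ratios within a library set the microfibril genes against each other. FBN2 counts per 100 FBN1 counts were 1.30, 1.31 and 1.22 in SLC with IL-1β and 3.15, 4.62 and 3.33 in MLC. With LOXL2 they were 0.786, 2.12 and 1.38 in SLC and 2.98, 3.38 and 3.30 in MLC, so every MLC library exceeded every SLC library. FBN2 and MFAP5 were picked for their patterns over these groups, and FBN1 was itself lower in MLC with IL-1β. Ratios that hold FBN2 or MFAP5 are therefore a description and give no separate result. MFAP2 counts per 100 FBN1 counts were 5.09, 4.30 and 5.53 in SLC with IL-1β and 9.64, 42.8 and 23.0 with LOXL2. In MLC they were 10.3, 13.0 and 10.4 with IL-1β and 16.1, 30.7 and 39.4 with LOXL2. ELN counts per 100 FBN1 counts were 43.4, 44.8 and 51.5 in SLC and 89.9, 108 and 94.5 in MLC with IL-1β. With LOXL2 the ELN ratio was 68.1, 149 and 119 in SLC and 139.6, 220.5 and 262 in MLC, above the IL-1β range of its layer in each library. MFAP5 counts per 100 MFAP2 counts were 109, 118 and 118 in SLC and 12.4, 13.3 and 14.6 in MLC with IL-1β. With LOXL2 they were 104, 55.6 and 76.6 in SLC and 14.1, 12.1 and 12.0 in MLC.

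An interaction term over the 12 libraries compared the LOXL2 effect of MLC with that of SLC. None of the 8 genes passed, and 0% of 14519 genes were called by edgeR, with 327 genes (2.25%) at an unadjusted p under 0.05 and none called by DESeq2. Without the first SLC library with LOXL2, 3984 of 14701 genes had an unadjusted p under 0.05 and 1 was called, and without both first LOXL2 libraries, an alternative added after seeing the data, 2951 did and 2 were called, none of them among the 8. In the first of these fits, 4 of the 8 genes had an unadjusted p under 0.05, with FBN1 at 0.78 (edgeR adjusted p = 0.0998), MFAP2 at -0.62 (edgeR adjusted p = 0.108), FBLN5 at 0.499 (edgeR adjusted p = 0.104) and ELN at 0.30 (edgeR adjusted p = 0.151). With all 12 libraries, ELN gave the largest departure among the 8 relative to its error, with an effect 0.30 higher in MLC on the log2 scale (SE 0.13, 95% interval 0.025 to 0.57, unadjusted p = 0.0349, edgeR adjusted p = 0.958). It was the only one of the 8 with an unadjusted p under 0.05. For FBN1 the difference was 0.39 with a 95% interval from -0.38 to 1.16, and for MFAP2 it was -0.42 with an interval from -1.03 to 0.20. A LOXL2 effect of unequal size in the layers was not detectable over the 12 libraries at this replicate spread.

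Partners of the elastic fiber were read from lists of 63 genes written for this purpose, of which 61 were in the tables. The latent TGF-β binding proteins share domains with fibrillins, and some of them, LTBP2 not among these, anchor latent TGF-β to microfibrils. Between layers with IL-1β, LTBP1 was higher in MLC (240 ± 10.8 against 442 ± 97.4 CPM, SD, n = 3, log2 fold change 0.89, edgeR adjusted p = 1.68e-05). LTBP3 was lower in MLC (-0.66, edgeR adjusted p = 4.90e-07), as was LTBP4 (-0.36, edgeR adjusted p = 8.42e-04), and LTBP2 was at -0.15 (edgeR adjusted p = 0.121). With LOXL2, LTBP2 fell in MLC from 2649 ± 119 to 1920.0 ± 298 CPM (SD, n = 3, log2 fold change -0.47, edgeR adjusted p = 0.0208) and was at -0.80 in SLC (edgeR adjusted p = 0.0706). The LTBP2 call in MLC held in 2 of the 6 fits without 1 library (edgeR adjusted p up to 0.108). LTBP1 was at -0.61 in SLC (edgeR adjusted p = 0.0706) and -0.42 in MLC (edgeR adjusted p = 0.0624). LTBP3 and LTBP4 lay between 0.10 and 0.16 in both layers and missed the threshold.

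Lysyl oxidases differed by layer. LOX, which cross-links elastin and collagen, was at 1338 CPM in SLC and 608 CPM in MLC with IL-1β (log2 fold change -1.13, edgeR adjusted p = 2.50e-09). LOXL1, the family member most tied to elastin, was higher in MLC (0.47, edgeR adjusted p = 3.24e-05), as were LOXL2 (0.40, edgeR adjusted p = 1.27e-04), LOXL3 (0.19, edgeR adjusted p = 0.0167) and LOXL4 (1.48, edgeR adjusted p = 3.04e-04), the last at 18 to 49 counts per library. The LOXL3 call was lost in 3 of the 6 fits without 1 library. None of the 5 passed the test for LOXL2 in either layer. LOX was at -0.69 in SLC (edgeR adjusted p = 0.0706) and -0.30 in MLC (edgeR adjusted p = 0.0593), and LOXL1 at 0.13 in SLC (edgeR adjusted p = 0.329) and 0.22 in MLC (edgeR adjusted p = 0.111). The LOXL2 gene was at -0.27 in SLC (edgeR adjusted p = 0.106) and -0.066 in MLC (edgeR adjusted p = 0.595), and with the span trend removed these values were 0.12 and 0.19. LOXL3 and LOXL4 lay between -0.16 and 0.082.

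**Figure D5:**
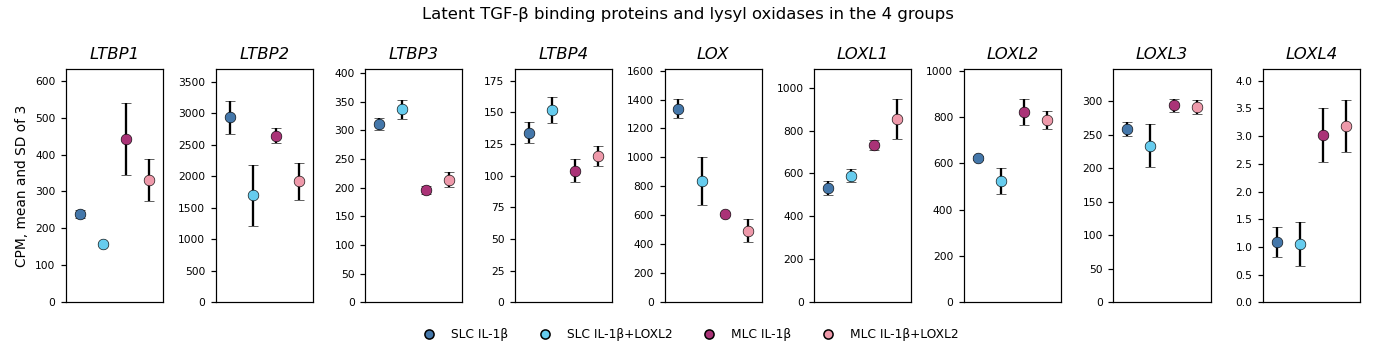
Level in CPM (y axis, from 0, a separate scale for each gene) of the 4 latent TGF-β binding proteins and the 5 lysyl oxidases in the 4 groups, as mean with SD of 3 libraries. LOX is highest in SLC with IL-1β, LTBP1 and LOXL1 are higher in both MLC groups than in the SLC groups, and LTBP2 is lower with LOXL2 in both layers.

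Of the 52 partner genes tested between layers with IL-1β, 17 were higher and 20 lower in MLC, against 24.2% and 22.7% of all genes. Among microfibril and elastic fiber partners, 5 of 16 were higher and 7 lower. MFAP4, a microfibril-associated protein that binds elastin, fell from 88.8 CPM in SLC to 37.8 CPM in MLC (-1.23, edgeR adjusted p = 1.43e-08). TNXB, a large tenascin, was lower in MLC (-2.07, edgeR adjusted p = 0.00338), at 13 to 26 counts per SLC library and 2 to 5 per MLC library. Of 9 ADAMTS-like and ADAMTS regulators of microfibrils, 1 was higher and 5 were lower. ADAMTSL3 was at 26.2 CPM in SLC and 2.94 CPM in MLC (-3.15, edgeR adjusted p = 5.78e-10), and ADAMTSL1 at 34.4 and 4.17 CPM (-3.04, edgeR adjusted p = 1.33e-10).

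Among elastin-degrading proteases, 1 of 6 was higher and 2 were lower in MLC. For this and the following lists, the share of all genes called was 24.2% higher and 22.7% lower. CTSS, an elastin-degrading cathepsin, was lower (-0.88, edgeR adjusted p = 1.39e-05), and MMP12, macrophage elastase, passed the test with 0 to 2 counts per SLC library and 17 to 26 per MLC library. From the list of processing and glycosylation enzymes, the glycosylation enzymes POGLUT2 and POGLUT3 were absent from the count tables. Of the 3 measured processing enzymes, FURIN, which cleaves profibrillin, was higher (0.66, edgeR adjusted p = 9.59e-07) and PCSK5, a related convertase, lower (-0.89, edgeR adjusted p = 8.26e-06). The receptors divided evenly, 3 of 8 higher and 3 lower, with the integrin subunits ITGB8 higher (0.89, edgeR adjusted p = 5.18e-07) and ITGB3 lower (-1.98, edgeR adjusted p = 2.97e-09). Of 5 growth factors held by microfibrils, 2 were higher and 1 lower, among them BMP4 (0.87, edgeR adjusted p = 1.12e-06) and TGFB1 (0.56, edgeR adjusted p = 1.92e-05), both higher.

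With LOXL2 in both layers, 13 of the 52 partner genes were higher and 12 lower in MLC, against 9.29% and 6.83% of all genes. ADAMTSL1 was at -2.96 (edgeR adjusted p = 0.00161), ADAMTSL3 at -2.95 (edgeR adjusted p = 0.00138) and ITGB3 at -1.96 (edgeR adjusted p = 0.00799). MFAP4 was at -1.34 (edgeR adjusted p = 0.00206), ITGB8 at 1.08 (edgeR adjusted p = 0.00201) and BMP4 at 1.01 (edgeR adjusted p = 0.00742). Among the lysyl oxidases, LOX was at -0.75 (edgeR adjusted p = 0.0326), LOXL1 at 0.55 (edgeR adjusted p = 0.0232) and LOXL3 at 0.33 (edgeR adjusted p = 0.155). The LOX and LOXL1 calls were each lost in 3 of the 6 fits without 1 library (edgeR adjusted p up to 0.136 and 0.115). Over the same fits, LOXL2 lay between 0.53 and 0.66, past the threshold in 2 of 6. LOXL4 lay between 1.40 and 1.97, past the threshold in 3 of 6. LTBP1 was at 1.07 (edgeR adjusted p = 0.00263), LTBP2 at 0.19 (edgeR adjusted p = 0.645), LTBP3 at -0.64 (edgeR adjusted p = 0.00661) and LTBP4 at -0.38 (edgeR adjusted p = 0.0612).

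For LOXL2 in MLC, 2 of 51 partner genes were higher and 10 lower, against 9.81% and 11.8% of all genes. With the span trend removed, 4 were higher and 8 lower, against 5.95% and 7.36% of all genes. VCAN (versican), a proteoglycan that binds fibrillin and fibulins, fell from 2665 to 1431 CPM (-0.90, edgeR adjusted p = 0.019), and HMCN1, a very large fibulin-related protein, fell from 518 to 311 CPM (-0.74, edgeR adjusted p = 0.0194). The integrin subunits ITGB8 (-0.73, edgeR adjusted p = 0.019) and ITGAV (-0.52, edgeR adjusted p = 0.0199), which form a TGF-β-activating receptor, also fell, as did THSD4, an ADAMTS-like protein that promotes fibrillin assembly (-0.42, edgeR adjusted p = 0.0342). Among the called partners, MFAP4 rose (0.47, edgeR adjusted p = 0.0237). The count was 0 to 27 in the 6 fits without 1 library, where 0% to 48.1% of all genes were called. In SLC, 0 of 51 partner genes were called, with 20 at an unadjusted p under 0.05, 17 called by DESeq2 and 31 without the first SLC library with LOXL2, against 43.3%, 31.9% and 61.7% of all genes. In that layer VCAN was at -1.54 and HMCN1 at -1.15 (edgeR adjusted p = 0.0706 and 0.0717). No partner gene passed the interaction test over the 12 libraries, at an unadjusted p under 0.05 or by DESeq2.

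The genes whose levels ran closest to ELN, FBN2 and MFAP5 over the 12 libraries were found by Pearson's r of log2 CPM among 14518 genes, as a description, since the libraries share layer, treatment and depth. For MFAP5 they were SERPINF1 (0.995), ASIP (0.993) and FBLN2 (0.993), the last being another elastic fiber gene of the 10. For FBN2 they were ERO1B (0.988), ASB1 (0.981) and NFKBIZ (0.972). For ELN, whose groups lay closest together, they were BAG2 (0.889), KRI1 (0.886) and EVI5L (0.838).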

How the data were processed

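RNA-seq libraries were paired-end and poly-T selected. The authors aligned reads to the goat genome ARS1.2 and deposited raw counts per gene from featureCounts, 1 table per layer. The submitters' processing notes also name HISAT2. Strand and multi-mapping settings are not given in the sources used here. Symbols were matched to the RefSeq annotation of ARS1.2 (27163 of 27187 names). The 1783 rows sharing a name were left out of fits across layers.

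Counts were tested with edgeR 4.0.16 (R 4.3.3): TMM, filterByExpr (minimum count 10, total 15), quasi-likelihood F test, Benjamini-Hochberg adjustment over all genes, threshold 0.05. SE was obtained from the log2 fold change and F. Each fit used the 6 libraries compared, the interaction all 12. Scripts were checked on simulated counts. DESeq2 1.42.0, other normalization and filters, removal of the span trend (lowess, 0.3) and leaving out each library were alternatives.

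Members and lists were chosen with earlier results of these data known. All 10 members, LTBP1 to LTBP4, LOX, LOXL1 to LOXL4, up to 2 largest called changes per list and comparison, and the 3 genes most like ELN, FBN2 and MFAP5 are named. Main-fit values of LOXL2, LOXL4, TNXB, MMP12, CTSS, PCSK5, FURIN and TGFB1 in the layer comparison with LOXL2 are left out, though that rule covers them. MFAP4 with LOXL2 in MLC, and VCAN and HMCN1 in SLC, were named after their values were seen. In the layer comparison with LOXL2, 4 of 6 libraries correlated best with their own replicate number (correlations of deviations 0.606, 0.206 and 0.168). The 0.606 belongs to the first LOXL2 libraries, which lay apart in both layers, so these values cannot show whether libraries were paired. The labels do not say what a number marks.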

Additional observations from a re-analysis of the deposited data

How the results depend on the processing

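The layer differences with IL-1β kept 5 of 8 called genes in each alternative, and those with LOXL2 ranged from 3 to 5 in fits without 1 library. For LOXL2 in SLC, the count of 0 became 3 with DESeq2 and 4 in the fit on all 12 libraries, and ranged from 0 to 6 without 1 library. For LOXL2 in MLC, the count of 5 became 0 in the fit on all 12 libraries and ranged from 0 to 5 without 1 library. Fits with 12 libraries share 1 estimate of the spread, and the cause of these changes, those in the 12-library fits included, was not tested. The interaction count was 0 in each fit, including those without 1 library.

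With the span trend removed, these log2 fold changes turned: FBLN5 (0.18), EMILIN1 (-0.16) and LOXL2 (0.12) in SLC, EMILIN1 (-0.037) and LOXL2 (0.19) in MLC, and EFEMP2 in the interaction (0.032). Without 1 library, signs turned within these ranges. In SLC they were -0.39 to 0.056 for FBLN5, -0.038 to 0.047 for ELN and -0.42 to 0.15 for LOXL4. In MLC they were -0.045 to 0.0028 for LOXL3 and -0.045 to 0.17 for LOXL4. Between layers they were -0.052 to 0.021 for MFAP2 with IL-1β and -0.090 to 0.19 for EFEMP2 with LOXL2. In the interaction they were -0.23 to 0.029 for FBLN1, -0.13 to 0.051 for FBLN2, -0.21 to 0.090 for EFEMP2 and -0.036 to 0.12 for EMILIN1. Of these values, only FBLN5 in SLC passed the threshold in any fit, without the first LOXL2 library.

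Counts of called partner genes that moved by over 1.5 times were 17 (DESeq2) and 22 (all 12 libraries) against 0 for LOXL2 in SLC, and 0 (all 12 libraries) against 12 in MLC. For the latter, 18 were called with the replicate number as a block. Between layers with LOXL2 the count of 25 fell as low as 12 without 1 library.

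With the replicate number as a block, the members called were 0 for LOXL2 in SLC, 5 in MLC, 5 between layers with IL-1β and 0 in the interaction, against 0%, 29.7%, 41.7% and 0% of all genes. The pairing check failed in the first 3 of those comparisons, where 2, 3 and 0 of 6 libraries correlated best with their own number. Between layers with LOXL2 it was 4 of 6, which does not establish pairing. Between layers with LOXL2 the block raised the genes called from 2268 to 3884 and the members called from 4 to 5, and it changed no other member call.

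Levels per transcript length were not run, since no exon lengths were at hand. The lowest count of a member in a library was 311, and the part of depth in the calls was not tested.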
